A study of Mus musculus with 18 samples.

Results

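The growth hormone, JAK and STAT genes described here are Ghr, Jak1, Jak2, Stat3, Stat5a, Stat5b, Socs2, Socs3 and Cish, and the values are their accessible chromatin sites in mouse liver. A site is a stretch of mm9 covered by overlapping or touching FAIRE-seq peaks from any of 9 strains, and a site belongs to these genes if it overlaps a gene body or lies within 20 kb of either end of it in GENCODE M1. By this rule 82 of 51957 sites were kept around the 9 genes, of 22367 protein-coding genes in all. Of these sites 18 were promoter sites, which lie within 1 kb of an annotated start of the gene, and the other 64 were distal.

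FAIRE-seq sequences the DNA that crosslinked nucleosomes leave free, here from whole liver tissue, a mixture of hepatocytes and other cells, in which fewer cells of a type and less accessible chromatin per cell cannot be told apart. The mice were males of 7 inbred strains, DBA/2J, CBA/J, C57BL/6J, C3H/HeJ, BALB/cJ, AKR/J and A/J, and of BXH19/TyJ and BXH2/TyJ, the 2 recombinant strains, which were bred from C57BL/6J and C3H/HeJ. All had eaten chow until 8 weeks of age and then, for 8 weeks, a diet high in fat and sucrose (HF/HS), so no group without the diet was compared. There were 2 mice per strain and 18 samples, but each strain has 1 deposited list in which its mice are combined. Values per strain therefore carry no replicate error, no difference between strains could be tested against one, and the number of reads behind each list is not in the files used here.

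Growth hormone binds its receptor GHR on hepatocytes, and the receptor activates the kinase JAK2, which phosphorylates STAT5A and STAT5B. The phosphorylated STAT5 proteins bind DNA and raise transcription of target genes, among them Socs2 and Cish, whose proteins dampen the signal. Cytokines of the interleukin-6 family act through JAK1 and STAT3 in the same cells, with SOCS3 as the main brake.

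STAT proteins recognise a palindrome called the GAS motif, searched here as TTCNNNGAA, which reads the same on both strands. The sequences below are shown because they hold these letters inside sites of the feedback genes, of Stat5a or of Ghr. They are the plus strand of mm9, whose sequence is that of C57BL/6J, with the GAS letters in capitals. The first pair lies at the Cish promoter, chr9:107198990-107199009 and chr9:107199095-107199120, within a site called in 9 strains.

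Cish promoter, first pair: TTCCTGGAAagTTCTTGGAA

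Cish promoter, second pair: TTCTAGGAAgatgaggcTTCCGGGAA

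The Socs2 stretch is chr10:94879492-94879697 and the Socs3 stretch chr11:117830544-117830843, both inside promoter sites called in 9 strains. Both genes lie on the minus strand.

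Socs2 promoter: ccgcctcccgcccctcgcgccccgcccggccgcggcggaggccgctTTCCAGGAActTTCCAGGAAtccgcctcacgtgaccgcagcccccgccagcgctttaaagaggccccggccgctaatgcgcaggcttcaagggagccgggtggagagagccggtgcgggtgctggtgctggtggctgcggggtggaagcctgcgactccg

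Socs3 promoter: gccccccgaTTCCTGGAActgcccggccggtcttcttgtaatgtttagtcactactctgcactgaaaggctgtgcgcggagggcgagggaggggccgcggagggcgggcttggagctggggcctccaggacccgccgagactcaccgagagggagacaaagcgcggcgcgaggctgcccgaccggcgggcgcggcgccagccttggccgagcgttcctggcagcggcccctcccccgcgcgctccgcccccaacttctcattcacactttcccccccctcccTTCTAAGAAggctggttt

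The next stretches come from sites that some strains lack. They are chr9:107200292-107200591 inside Cish, called in C57BL/6J and CBA/J alone, chr9:107210944-107211243 beyond the end of Cish, called in 7 strains, chr11:100731740-100732039 in an intron of Stat5a, called in 8 strains, and chr15:3441011-3441310 in an intron of Ghr, called in AKR/J and BXH19/TyJ alone.

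Cish, inside the gene: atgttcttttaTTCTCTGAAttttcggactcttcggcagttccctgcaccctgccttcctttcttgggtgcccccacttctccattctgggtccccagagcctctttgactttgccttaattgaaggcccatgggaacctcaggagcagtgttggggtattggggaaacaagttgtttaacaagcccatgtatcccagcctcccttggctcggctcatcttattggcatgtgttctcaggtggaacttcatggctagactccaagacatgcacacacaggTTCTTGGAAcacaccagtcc

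Cish, beyond the gene: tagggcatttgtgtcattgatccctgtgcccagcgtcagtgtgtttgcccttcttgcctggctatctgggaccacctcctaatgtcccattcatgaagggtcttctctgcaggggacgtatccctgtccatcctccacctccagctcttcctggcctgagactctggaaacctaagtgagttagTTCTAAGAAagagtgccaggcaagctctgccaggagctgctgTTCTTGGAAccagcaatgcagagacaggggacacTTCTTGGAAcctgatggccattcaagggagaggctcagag

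Stat5a intron: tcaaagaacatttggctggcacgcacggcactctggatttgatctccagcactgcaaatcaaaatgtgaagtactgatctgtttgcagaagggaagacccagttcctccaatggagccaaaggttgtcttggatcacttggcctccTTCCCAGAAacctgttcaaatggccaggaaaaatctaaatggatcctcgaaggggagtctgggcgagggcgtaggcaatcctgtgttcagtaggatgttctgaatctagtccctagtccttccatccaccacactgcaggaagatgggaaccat

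Ghr intron: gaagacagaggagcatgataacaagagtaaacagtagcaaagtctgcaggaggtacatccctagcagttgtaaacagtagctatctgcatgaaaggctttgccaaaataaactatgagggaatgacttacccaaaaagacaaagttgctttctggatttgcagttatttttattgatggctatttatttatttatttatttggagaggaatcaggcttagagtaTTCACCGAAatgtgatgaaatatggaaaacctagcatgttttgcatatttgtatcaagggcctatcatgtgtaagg

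A strain was counted as having a call at a site if 1 of its peaks overlapped the site, and the height of a call was the percentile of the authors' F-seq signal among all peaks of that strain's list, with 100 for the highest peak. The shortest list, that of DBA/2J, had 26769 peaks, and the longest, that of CBA/J, 30613. A site without a call can still be accessible below the caller's threshold. The A/J list stands apart from the rest, with 5920 sites of the whole union called in A/J alone against 534 to 1427 for each of the other strains, so results that rest on it are also given without it. As a check of the tissue, all 10 hepatocyte marker genes had a promoter call in at least 1 strain, but 5 of the 10 were called in A/J against 7 to 9 in the others. Alb, the gene of serum albumin, had a call in AKR/J and BXH19/TyJ alone, and Ttr and Cyp2e1, which are also highly expressed by hepatocytes, had one in every strain but A/J. Of 10 markers of other liver cells, 0 to 2 were called per strain and 7 in no strain, among them Ptprc, Clec4f and Krt19. Of 8 genes of other tissues Ins2 was called in all 9 strains, Gfap in 2, and 6 in none.

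Nearly all of these genes had a promoter site called in every list. Counted by site, 10 of the 18 promoter sites (55.6%) and 11 of the 64 distal sites (17.2%) were called in all 9 strains. A similar contrast held over the whole union, with 48.8% of sites within 1 kb of a start of any gene and 14.4% of other sites. Of the 9 genes, 8 had a site within 1 kb of their outermost annotated start that was called in all 9 strains, beside 38.5% of protein-coding genes. The exception was Jak2, which had no promoter call in DBA/2J. With any annotated start counted, 8 of 9 genes again had calls in all 9 strains, beside 41.2% of protein-coding genes.

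Over all 82 sites, 21 were called in all 9 strains, a share of 25.6% (exact Clopper-Pearson 95% interval 16.6 to 36.4, counting error only), and 26.6% of all sites in the union were. Called in 1 strain were 13 of 82, or 15.9% (8.72 to 25.6), beside 26.5% of all sites. The share called in all strains lay near the background, and the share called in 1 strain lay below it. Without AKR/J the latter was 24.7% beside 26.8%, close to each other. When a strain's peaks had to cover at least 50% of a site, 12.2% of the 82 sites and 13.2% of all sites were called in all strains. Of the 26 sites within 1 kb of a start of any gene, neighbours included, 13 were called in all 9 strains, beside 48.8% of all such sites. Of the 56 sites away from any start, 8 were called in all 9 strains, beside 14.4%, and 11 in 1 strain, beside 30.3%.

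**Figure D1:**
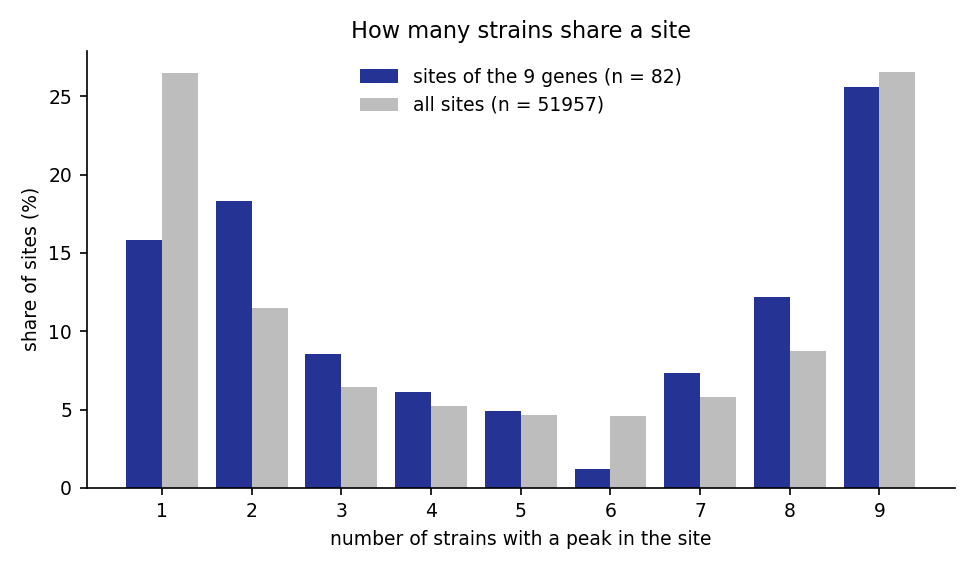
Share of sites, in percent, by the number of strains with a peak in the site, for the 82 sites of the 9 genes (dark bars) and all 51957 sites (grey bars). The 82 sites show 25.6% in all 9 strains against 26.6%, 15.9% in 1 strain against 26.5%, and 18.3% in 2 strains against 11.5%.

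The genes were also rich in sites. Stat5b had 22 sites in its window, Socs3 and Cish 12 each, Ghr 10, Stat3 and Stat5a 9 each, Jak1 8, Socs2 6 and Jak2 4, beside a median of 2 for a protein-coding gene. Stat5b, Stat5a and Stat3 are neighbours on chromosome 11, and sites in overlapping windows were given to 1 gene each, which left Stat5b with 18, Stat5a with 4 and Stat3 with 8. Window length differs between genes, from 3969 bp of gene body for Socs3 to 265733 bp for Ghr, and was not corrected for.

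Ghr (chr15:3267760-3533492, minus strand) encodes the growth hormone receptor and has 9 annotated starts. Its start lies in a pair of neighbouring promoter sites called in all 9 strains. The site over the outermost start, chr15:3532911-3533690, had percentiles of 74.0 in A/J, 57.6 in AKR/J, 47.8 in BALB/cJ, 43.1 in C57BL/6J, 37.0 in C3H/HeJ, 43.8 in CBA/J, 16.0 in DBA/2J, 49.3 in BXH2/TyJ and 38.2 in BXH19/TyJ. A/J was highest and DBA/2J lowest, and the SD over strains was 15.8, or 12.2 without A/J. The site centred 1173 bp into the gene, chr15:3531806-3532831, was in the authors' list of common sites, those with the least variation among the inbred strains, and ran from 26.2 in A/J to 63.1 in BXH19/TyJ with an SD of 11.5. A/J thus had the highest rank at the outer site and the lowest at the inner one.

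Far inside Ghr, 94143 bp from the outermost start, the intronic site chr15:3439088-3439610 was called in all 9 strains. Its percentile was 13.0 in A/J and between 47.7 and 74.4 in the other strains. The other Ghr sites were patchy, and 4 of them were called in AKR/J and BXH19/TyJ alone. Those were chr15:3402094-3402563 with percentiles of 36.3 and 21.5 in these strains, chr15:3435258-3435798 with 52.4 and 17.3, chr15:3440878-3441443 with 20.7 and 7.59, and chr15:3551781-3552105 with 2.48 and 17.7. AKR/J and BXH19/TyJ each had 9 of the 10 Ghr sites, and the other strains 3 to 6. An intronic site further in, chr15:3414588-3415290, was called in 7 strains, at 50.1 in AKR/J, 50.8 in C57BL/6J and 54.9 in DBA/2J, and at 4.33 to 31.7 in the other 4.

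The same combination of strains recurred in Jak1 and Stat3. Of 15 sites called in exactly 2 strains, 6 were called in AKR/J and BXH19/TyJ only, beside 10.8% of all sites of the union called in 2 strains. The 6 sites had a median GC content of 40.6%, against 52.1% over all 82 sites, and sites of the whole union with this combination had 41.8%. The part of GC content in these calls was not tested.

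Jak1 (chr4:100824972-100937887, minus strand) encodes a kinase of the interleukin-6 and interferon receptors. Its promoter site, chr4:100937054-100938159, was called high in all strains, from 79.7 in DBA/2J to 93.2 in BXH19/TyJ, with an SD of 4.64. None of its 7 distal sites, all intronic, was called in all 9 strains, beside 14.4% of all sites away from any start. At chr4:100906825-100907353 the percentile was 75.1 in AKR/J, 78.9 in BALB/cJ, 85.1 in C57BL/6J, 73.5 in C3H/HeJ, 76.9 in CBA/J, 71.0 in DBA/2J, 64.8 in BXH2/TyJ and 75.2 in BXH19/TyJ, and there was no call in A/J. This was the highest ranked of the distal sites that A/J lacked. The sites chr4:100848645-100849179 and chr4:100870986-100871322 were likewise called in every strain but A/J, at 15.7 to 54.4 and at 3.88 to 56.4.

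Jak2 (chr19:29326318-29387570, plus strand) encodes the kinase bound to the growth hormone receptor, and the site over its start lacked a call in 1 strain. The site over its single annotated start, chr19:29325503-29326362, had percentiles of 76.8 in A/J, 34.6 in AKR/J, 37.5 in BALB/cJ, 44.4 in C57BL/6J, 44.5 in C3H/HeJ, 41.4 in CBA/J, 74.0 in BXH2/TyJ and 60.8 in BXH19/TyJ, with no call in DBA/2J. A/J and the recombinant strains ranked highest, and both parents of the recombinant strains lay below either of them. The SD was 23.2 with DBA/2J set to 0. At 73.5% this site had the highest GC content of the 82. A second promoter site 311 bp inside the gene, chr19:29326478-29326780, was called in A/J alone at 48.9. The intronic site chr19:29339992-29340446 showed the reverse, with calls at 43.6 to 68.0 in every strain but A/J.

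Stat3 (chr11:100746412-100800854, minus strand), the transcription factor of the interleukin-6 response, had the promoter with the highest median percentile of the 9 genes. In A/J, BXH2/TyJ and DBA/2J the promoter of another of the genes ranked above it. Its site chr11:100800037-100801396 reached 99.7 in BALB/cJ, 99.0 in BXH19/TyJ, 97.8 in C3H/HeJ, 96.3 in AKR/J, 95.5 in C57BL/6J, 94.2 in CBA/J, 91.3 in BXH2/TyJ, 90.9 in DBA/2J and 86.7 in A/J. No strain lay below 86.7, and the SD was 4.27. A site at the 3′ end of the gene, chr11:100746749-100747203, was in the common list although it was called in C57BL/6J, C3H/HeJ and CBA/J alone, at 11.2 to 22.8. At the outer edge of the window, in the body of the neighbouring gene Ptrf, the site chr11:100819856-100820729 was in the authors' list of variable sites, with calls in A/J at 30.7 and DBA/2J at 30.5 and in no other strain.

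Stat5a and Stat5b encode the pair of STAT5 proteins and lie head to head on chromosome 11. Their promoters differed in rank. The first Stat5a site (gene at chr11:100720665-100746483, plus strand), chr11:100720452-100721182, lay between 76.7 in BXH2/TyJ and 93.4 in AKR/J with an SD of 5.61. The Stat5b promoter site (gene at chr11:100642045-100712038, minus strand), chr11:100711182-100713054, had percentiles of 80.4 in A/J, 62.2 in AKR/J, 52.3 in BALB/cJ, 36.8 in C57BL/6J, 40.4 in C3H/HeJ, 44.7 in CBA/J, 55.9 in DBA/2J, 60.3 in BXH2/TyJ and 49.8 in BXH19/TyJ. A/J was highest and C57BL/6J lowest, and the SD fell from 13.2 to 9.16 when A/J was left out. In every strain the Stat5a site ranked above the Stat5b site, although in A/J by less than 1 point.

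C57BL/6J was also lowest at the second Stat5a site, chr11:100721433-100722335, 1219 bp from the outermost start. There it had a percentile of 35.6, and the other 8 strains lay between 66.3 and 81.9. Inside Stat5a the intronic site chr11:100731474-100732538, with the GAS letters printed above, had percentiles of 63.5 in AKR/J, 64.7 in BALB/cJ, 52.7 in C57BL/6J, 65.4 in C3H/HeJ, 65.0 in CBA/J, 37.4 in DBA/2J, 43.0 in BXH2/TyJ and 65.0 in BXH19/TyJ, without a call in A/J. Stat5b had 3 of its 18 sites called in all 9 strains, beside 26.6% of all sites, and 4 called in 1 strain, beside 26.5%. Of the 3, chr11:100631402-100632726 overlaps the body of the neighbouring gene Ghdc and lies within 1 kb of a start of Ghdc. A/J lacked 5 of the 6 Stat5b sites that were called in 7 or 8 strains, all of them inside Stat5b, with percentiles of 0.589 to 61.3 in the other strains.

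**Figure D2:**
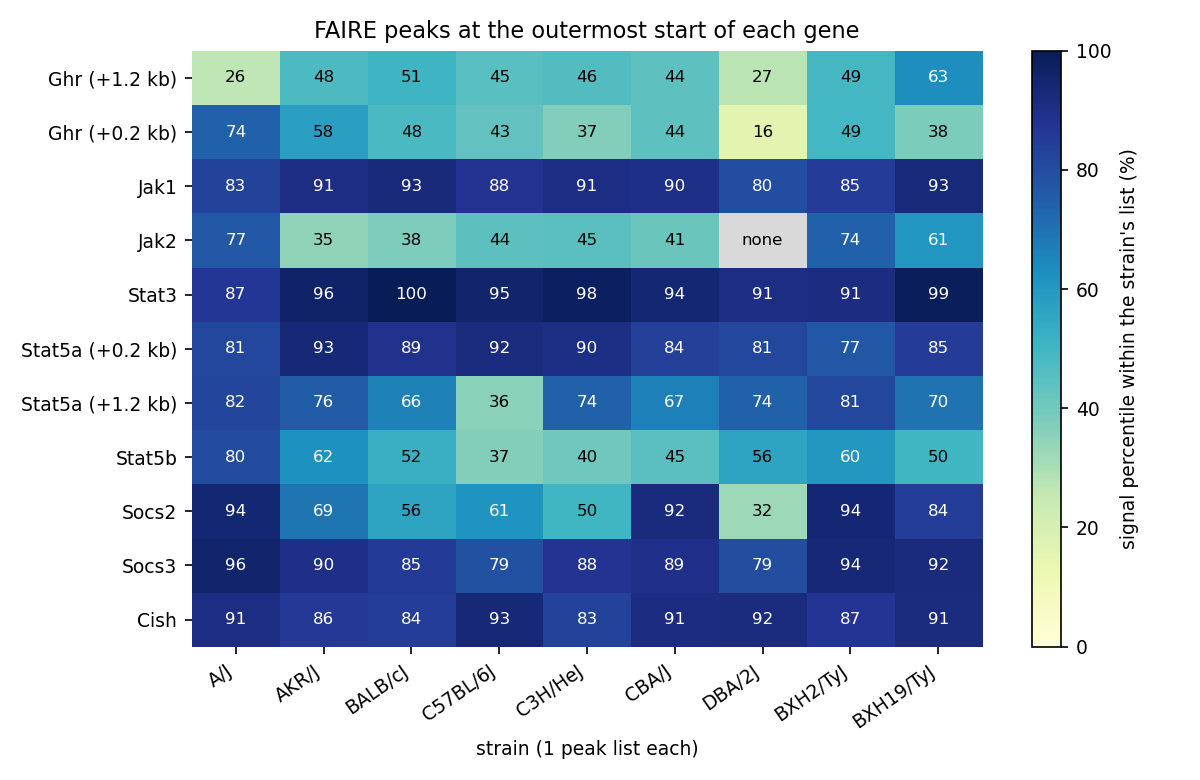
Signal percentile, in percent of the strain's own list, of each site at the outermost start of a gene that was called in at least 8 strains, by gene (rows, with the distance of the site's middle from the start for genes with a pair of sites) and strain (columns). Jak1, Stat3, Socs3, Cish and the first Stat5a site stay above 76 in every strain, whereas Socs2 runs from 32.4 to 94.1 and Jak2 has no call in DBA/2J.

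The feedback genes Socs2, Socs3 and Cish differed in how steady their promoters were. Socs2 (chr10:94847996-94879814, minus strand), whose loss in mice leads to overgrowth, had the widest range of any promoter called in all 9 strains. Its site, chr10:94876887-94880878, had percentiles of 94.1 in A/J, 69.4 in AKR/J, 55.9 in BALB/cJ, 61.2 in C57BL/6J, 49.6 in C3H/HeJ, 92.1 in CBA/J, 32.4 in DBA/2J, 94.0 in BXH2/TyJ and 84.4 in BXH19/TyJ. A/J, BXH2/TyJ and CBA/J lay close together at the top, and DBA/2J lay lowest. The recombinant strains both ranked above both of their parents. The SD was 22.3, or 21.8 without A/J, and 96.1% of sites called in all 9 strains had no larger one.

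The Socs2 promoter site was the only promoter site of the set in the variable list, which the authors drew from counts of the same inbred libraries and which is therefore not independent of these calls. The peaks that make it up also differed in length. They covered 3969 bp in A/J, 2300 bp in C3H/HeJ, 1809 bp in BXH2/TyJ, 1806 bp in CBA/J, 1685 bp in BALB/cJ, 1603 bp in C57BL/6J, 1453 bp in AKR/J, 1253 bp in DBA/2J and 1170 bp in BXH19/TyJ. The start of another annotated gene, 5730420D15Rik, lies within 1 kb of the site, so reads of either promoter fall into it.

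**Figure D3:**
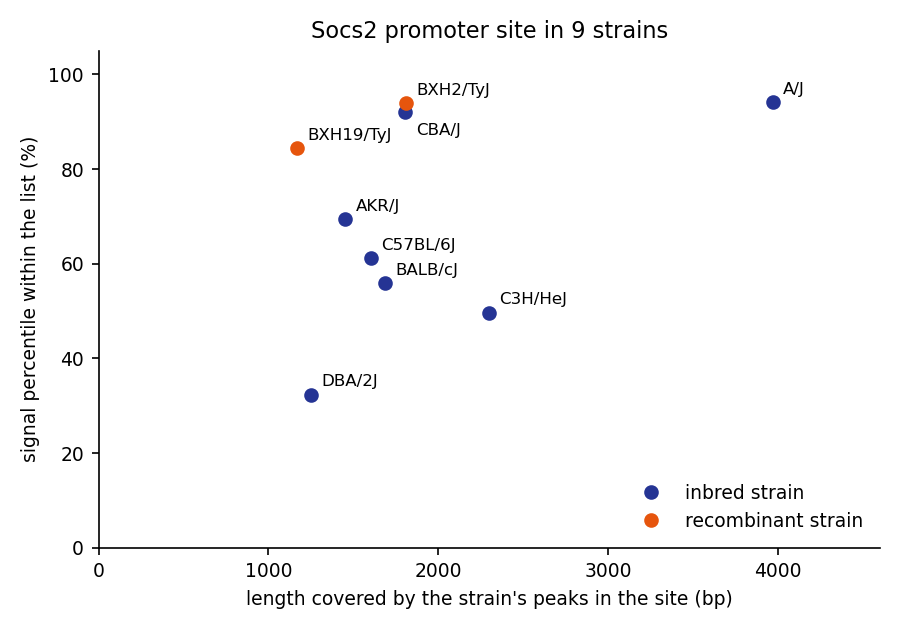
Signal percentile (vertical axis, percent of the strain's list) of the Socs2 promoter site against the length its peaks cover in the site (horizontal axis, bp), 1 point per strain, with the recombinant strains in orange. A/J covers 3969 bp and the others 1170 to 2300 bp, and percentiles run from 32.4 in DBA/2J to 94.1 in A/J.

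Upstream of Socs2, chr10:94892939-94893419 was called in AKR/J, BALB/cJ, C57BL/6J, CBA/J and BXH19/TyJ at 34.5 to 46.1, and chr10:94888887-94889324 in CBA/J, AKR/J, C3H/HeJ and C57BL/6J at 17.0 to 49.3. Neither A/J nor BXH2/TyJ, which ranked highest at the promoter, had a call at these upstream sites, and nor did DBA/2J, which ranked lowest. CBA/J, close to A/J and BXH2/TyJ at the promoter, had a call at both. A short site directly upstream of the promoter, chr10:94881313-94881625, was in the common list, with calls in 5 strains at 6.25 to 28.0.

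Socs3 (chr11:117827393-117831361, minus strand) had 6 of its 12 sites called in all 9 strains, beside 26.6% of all sites. Of the 6, chr11:117847449-117848719 overlaps the body of the neighbouring gene Pgs1 and lies within 1 kb of a start of Pgs1. The Socs3 promoter site chr11:117828416-117832088 lay between 78.7 in C57BL/6J and 95.5 in A/J with an SD of 5.88. Downstream of the gene, chr11:117824400-117825497 had percentiles of 93.6 in A/J, 94.5 in AKR/J, 95.6 in BALB/cJ, 96.7 in C57BL/6J, 94.1 in C3H/HeJ, 93.9 in CBA/J, 91.4 in DBA/2J, 90.5 in BXH2/TyJ and 93.5 in BXH19/TyJ. With an SD of 1.89 this distal site was as high as the promoter and steadier, and it was in the common list. Its neighbour chr11:117826261-117827264 was the opposite, at 74.1 in C57BL/6J, 42.2 in BXH19/TyJ, 35.2 in BXH2/TyJ, 27.9 in CBA/J, 22.2 in BALB/cJ, 14.5 in AKR/J and 2.45 in DBA/2J, without a call in A/J or C3H/HeJ. A site at the far downstream edge, chr11:117810581-117811463, was called in A/J at 67.7, BXH2/TyJ at 49.9, C3H/HeJ at 26.9 and C57BL/6J at 4.73.

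Cish (chr9:107198357-107205115, plus strand), the first known gene of the SOCS family, combined a steady promoter with sites that only some strains had. Its promoter site, chr9:107198388-107199913, had percentiles of 90.9 in A/J, 86.1 in AKR/J, 84.4 in BALB/cJ, 93.4 in C57BL/6J, 83.0 in C3H/HeJ, 91.1 in CBA/J, 91.5 in DBA/2J, 87.3 in BXH2/TyJ and 91.4 in BXH19/TyJ. The SD of 3.68 was the smallest of the promoters called in all 9 strains. A start of another annotated gene, Gm17040, lies within 1 kb of this site, so its signal may not be that of Cish alone. The same holds for the sites chr9:107196638-107196882 and chr9:107200268-107201155. Of the 12 Cish sites, 2 were called in all 9 strains, the promoter site included, beside 26.6% of all sites. Another 2 were called in 1 strain, beside 26.5%, and the remaining 8 in 2 to 8 strains.

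C57BL/6J and CBA/J shared 3 Cish sites with no other strain. These were chr9:107200268-107201155 inside the gene, at 55.7 in C57BL/6J and 57.7 in CBA/J, chr9:107207426-107207776, at 30.9 and 43.3, and chr9:107218095-107218859, at 56.3 and 46.6, the last of them in the variable list. They made up 3 of the 15 sites called in exactly 2 strains, beside 4.13% of all such sites for this combination. A further 2 of the 15 were called in C57BL/6J and DBA/2J only, beside 3.75%. Both were upstream of Cish, chr9:107190922-107191371 at 52.5 and 28.8, which was in the variable list, and chr9:107196638-107196882 at 25.6 and 29.0. The first of them lies in the body of the neighbouring gene Mapkapk3, within 1 kb of a start of that gene. C57BL/6J thus had 9 of the 12 Cish sites, and AKR/J and BXH2/TyJ 3 each, the promoter included.

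The widest spread of the set was at chr9:107191377-107192402, which lies upstream of Cish at the start of the neighbouring kinase gene Mapkapk3. Percentiles there were 78.4 in CBA/J, 70.1 in DBA/2J, 65.8 in C57BL/6J, 65.4 in A/J, 49.0 in C3H/HeJ, 29.6 in BALB/cJ, 20.4 in BXH2/TyJ, 8.67 in AKR/J and 1.61 in BXH19/TyJ, with an SD of 28.8. The recombinant strains were below both parents. Beyond the end of Cish, chr9:107209722-107211243 was called in 7 strains at 23.6 to 58.4 and was missing in DBA/2J and BXH2/TyJ. Upstream, in the body of Mapkapk3, chr9:107181110-107181591 was called in C3H/HeJ at 48.1, BXH2/TyJ at 40.2, BXH19/TyJ at 35.9 and BALB/cJ at 4.29.

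**Figure D4:**
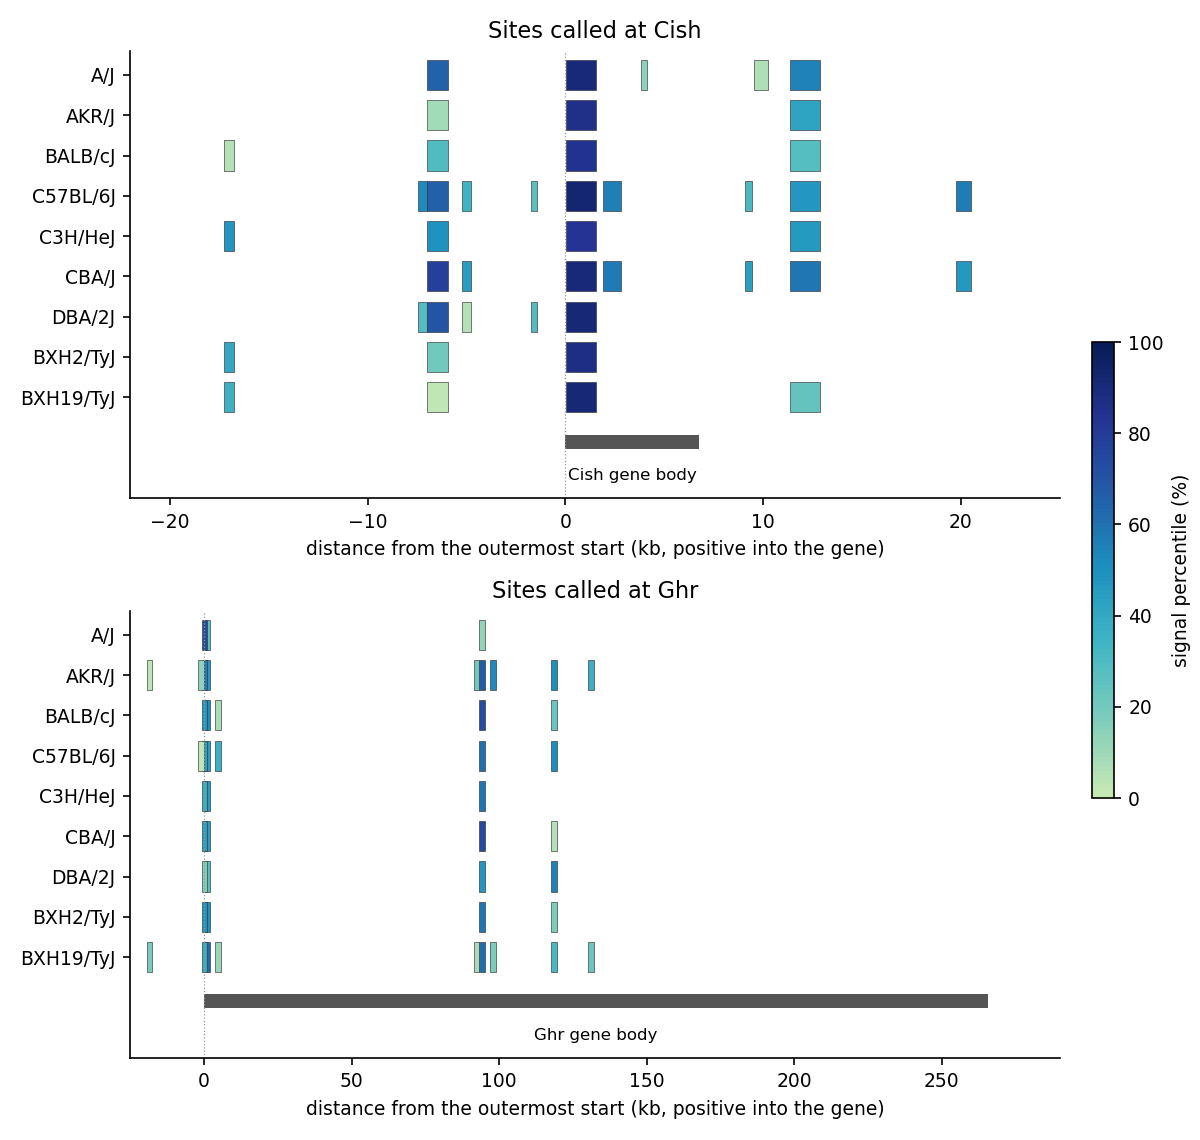
Calls of each strain at the sites of Cish (top) and Ghr (bottom) by distance from the outermost start in kb, positive into the gene, with colour for the signal percentile, 1 bar per called site (drawn over the whole merged site, at least 0.6% of the axis wide) and the gene body in grey. At Cish the promoter is called in 9 strains and 3 sites in C57BL/6J and CBA/J alone, and at Ghr 4 sites are called in AKR/J and BXH19/TyJ alone.

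Seen by strain, A/J had the fewest calls around these genes, and the deficit was in distal sites. It had 32 of the 82 sites, with 13 of 18 promoter sites and 19 of 64 distal sites, and the other strains had 43 to 53, with 12 to 15 promoter and 31 to 39 distal sites. Over the whole union A/J was not lower, at 54.5% of sites called against 46.7 to 56.9% in the others, but 5920 of its sites were called in A/J alone. Missing calls in A/J were not particular to these genes. A/J was the strain without a call at 2742 of the 4546 sites of the union called in exactly 8 strains (60.3%). Around these genes it was so at 8 of 10. Of the 29 sites called in all other 8 strains, 8 were missing in A/J, beside 16.6% of all such sites. Away from any start these were 7 of 15, beside 33.2%. The 8 sites had a median GC content of 49.6%, and the sites called in all 9 strains 56.2%, close to 49.5% and 57.3% over the whole union. The part of GC content in these calls was not tested. Without A/J, 29 of 78 sites, or 37.2%, were called in all remaining strains, beside 35.6% of all sites.

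**Figure D5:**
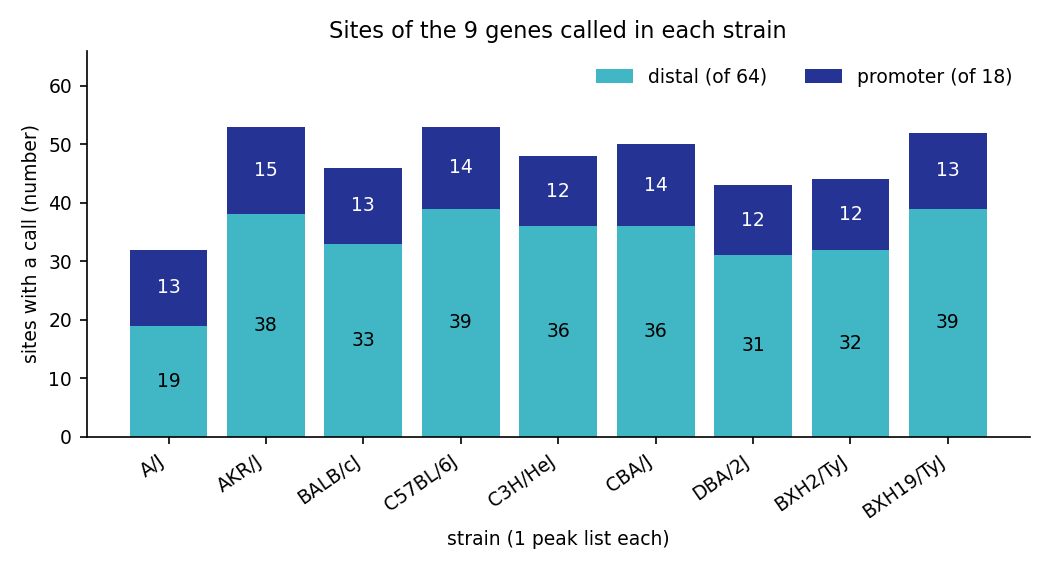
Number of the 82 sites called in each strain, split into distal sites (light, of 64) and promoter sites (dark, of 18). A/J has 19 distal sites and the other strains 31 to 39, while promoter sites range from 12 to 15.

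BXH2/TyJ and BXH19/TyJ carry segments from either C57BL/6J or C3H/HeJ, so their calls were compared with those of the parents. At 23 sites around these genes 1 of the 2 parents had a call. BXH2/TyJ matched C57BL/6J at 9 of them (39.1%, exact interval 19.7 to 61.5), beside 44.6% over all such sites of the union, and BXH19/TyJ at 12 (52.2%, 30.6 to 73.2), beside 43.6%. With the 20000 highest peaks of each list the share of BXH19/TyJ was 26.7%. Neither share could be told from its background at this number of sites, and sites on 1 inherited segment are not independent. By gene the pattern was uneven, since all 7 such Cish sites had the C3H/HeJ state in both recombinant strains, and of the 4 at Socs3, 3 in BXH2/TyJ and 4 in BXH19/TyJ had the C57BL/6J state. At most of these sites that state was the lack of a call. Over the whole union, BXH2/TyJ had calls at 32.4% of sites called in C57BL/6J but not C3H/HeJ, and BXH19/TyJ at 33.6%. For sites called in C3H/HeJ but not C57BL/6J these shares were 44.4% and 47.3%. Which segment each strain carries at these genes was not examined. BXH19/TyJ had calls at 8 of the 20 sites without a call in either parent (40%), beside 14.8% of all such sites, and BXH2/TyJ at 2 (10%), beside 19.6%. The 8 include the 6 sites called in AKR/J and BXH19/TyJ only, described above, so this is not a separate result.

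The authors' lists of variable and common sites each held 4 of the 82 sites (4.88%, exact interval 1.34 to 12.0), beside 5% of the 7-strain union for the variable list and 5% for the common list. The variable ones were the Socs2 promoter site, the site in Ptrf near Stat3 and the pair of sites around Cish named above, of which the upstream one lies in Mapkapk3. The common ones were at Ghr, Stat3, Socs2 and Socs3. Within 10 kb of the genes the variable list held 2 sites. The median SD of percentiles was 13.3 over the 82 sites and 11.1 over all sites (11.3 against 12.1 if strains without a peak are left out), and 8.67 over the 18 promoter sites against 9.98 over all sites within 1 kb of a start.

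GAS letters were found somewhere in 21 of the 82 sites (25.6%) and in 15.0% of all sites. Within 300 bp around the middle, 8 of the 82 (9.76%) and 7.48% of all sites held them. The 82 sites held 35 in all, or 0.597 per kb, against 0.255 per kb in all sites. The Cish promoter site held 4, all printed above, of which 3 fell in the middle 300 bp, and 7 of 51957 sites had 3 or more there. They lay 36 to 75 bp on either side of an annotated Cish start, inside the first exon of the transcript that starts furthest upstream. The Socs2 pair lay 51 and 62 bp before a start and the printed Socs3 ones 57 and 65 bp before different starts. Beyond the end of Cish, the site called in 7 strains also held 4. By contrast the 300 bp from 250 before to 50 after the outermost start held GAS letters in 0 of the 9 genes, beside 7.94% of 22380 protein-coding promoters.

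Other motifs were searched on both strands in the same 300 bp. TTGCNNAA, for C/EBP, was found in 13 of the 82 sites (15.9%, against 12.8% of all sites), TGTTTAC, for FOXA, in 4 (4.88%, against 4.62%), CAAAGTCCA, for HNF4, in 0 (against 1.52%) and GGGCGG, a GC box, in 16 (19.5%, against 27.2%). A match is a string of letters in the C57BL/6J sequence and shows no binding, and other strains may carry other letters there.

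The rest of the pathway was described by promoter calls within 1 kb of any annotated start. Of 15 other cytokine receptor genes 6 were called in all 9 strains, 8 in some and 1, Il6st, in none. Prlr, the prolactin receptor and closest relative of Ghr, was called in all 9 strains at 21.1 to 69.4, and Lifr, which binds leukaemia inhibitory factor, in all but DBA/2J at 32.4 to 79.9. Of 5 other JAK and STAT genes Stat2 and Stat6 were called in all 9 strains, and Tyk2 and Stat4 in none. Jak3, a kinase of lymphocyte receptors, was in the variable list, with calls in 7 strains that ran from 0.65 in CBA/J to 69.7 in A/J.

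Other regulators of the pathway were nearly as steady as the 9 genes, with 12 of 15 called in all 9 strains and none missing in all. Pias4, a SUMO ligase that restrains STATs, lay between 98.0 and 99.2 and was in the common list. The exceptions were Socs4, Socs6 and Ptpn11, which encodes a phosphatase. Socs4 was called at 78.9 in A/J and 89.4 in BXH2/TyJ and not at all in C57BL/6J or DBA/2J, and Socs6 was called at 55.5 in A/J, 59.8 in BXH2/TyJ and 21.8 in BXH19/TyJ alone. Ptpn11 had 73.0 in A/J, 71.8 in BXH2/TyJ and 20.3 to 35.2 in the other 4 strains with a call.

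A/J and BXH2/TyJ were likewise the highest strains at Jak2 and Socs2. At Prlr, by contrast, BXH2/TyJ was the lowest strain, at 21.1. The likeness was not particular to these genes. Of all union sites called in A/J or BXH2/TyJ, 54.2% were called in both, against 42.7% to 49.6% for A/J and each other strain.

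Of 18 liver targets of growth hormone, 5 were called in all 9 strains, 6 in some and 7 in none. Igfals, which encodes the subunit that stabilises circulating IGF-1, was called at 56.5 to 81.0 and was in the common list, whereas Igf1 itself had no promoter call in any strain. Cux2, a female-biased target, was in the variable list with calls in 4 strains at 10.6 to 21.7. Cyp2d9, a male-biased target, was called at 43.4 to 76.1 in every strain but A/J. Cyp7b1, an oxysterol hydroxylase with male bias, was called in 6 strains, at 67.6 in A/J and 5.88 to 36.1 in the others.

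For each gene the mean percentile over the sites of its window, with 0 for no call, was also compared with that of other genes with at least 3 sites over the 9 strains. The most alike were Pm20d1 for Ghr (Pearson r = 0.974), Fam63a for Jak1 (0.977), Grn for Jak2 (0.986), Ctnnbl1 for Stat3 (0.970), Med26 for Stat5a (0.962), Ube2l6 for Stat5b (0.949), Lrrc33 for Socs2 (0.977), Tchp for Socs3 (0.985) and Jazf1 for Cish (0.962). Each is the highest of 11029 to 11032 correlations over 9 points that share their lists, and is given as a description.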

How the data were processed

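Livers of 9 strains (2 mice each, 18 samples) had been profiled by FAIRE-seq. The authors aligned reads with Bowtie to mm9 carrying each strain's SNPs, kept uniquely mapped reads, called peaks with F-seq and combined the replicates by IDR. The genome behind each recombinant list and the tool versions were not given in the sources used. Deposited peak lists give positions and the F-seq signal, a score with no stated scaling between strains, and the deposited other columns used are the starts, ends and summits. The authors also deposited the variable and common sites, the extremes of their DESeq test over the 7-strain union. That union was rebuilt here (50775 sites) and held all 2539 sites of each list. Signal tracks and reads were not used here.

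Peaks that overlapped or touched were merged, and a strain was given the highest percentile of its peaks in a site. SDs set strains without a peak to 0. Genes were from GENCODE M1 on NCBIM37, the assembly of mm9. All 81 other listed genes were found, 1 by an older symbol. Another 2 genes first placed in these lists are not reported here and enter no count of them. Groups were the strains in the labels. Since each strain has 1 list, no test between strains was run, and read depth is not in the lists; the read totals in the study's supplement were not used here. Intervals are exact binomial at the 95% level. The genes and lists were chosen with earlier results of these data known. Named were the 9 genes with their promoter sites, sites called in 1 to 8 strains by spread, and listed genes missing in a strain or in a list of the authors. Alternatives were other windows, overlaps, list lengths and strains left out. The merging, calls and motif search were tested on simulated lists. The work used samtools 1.23.1, matplotlib 3.10.9 and, for the computations, scipy 1.17.1, pandas 2.3.3, numpy 2.4.6 and pysam 0.24.0 under Python 3.11.15.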

Additional observations from a re-analysis of the deposited data

Results flagged for a closer look

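Of 42 sets of values over strains, 7 held a strain whose gap to the next was past Dixon's 95% critical value for 9 values, a rule that flags about 1 set in 20 by chance. That rate is for separate sets without ties. Here the calls at a gene also enter the distal and total counts, and some counts are tied, so the 7 cannot be set against it. In 4 of the 7 the strain was A/J with the fewest calls: 32 of the 82 sites, next 43; 19 of the distal sites, next 31; 2 of the Jak1 sites, next 4; and 3 of the Stat5a sites, where every other strain had 4. A/J also lay apart at the intronic Ghr site chr15:3439088-3439610, at a percentile of 13.0 with the next at 47.7.

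C57BL/6J lay apart at the second Stat5a promoter site, chr11:100721433-100722335, at 35.6 with the next at 66.3. DBA/2J lay apart at the site chr11:117819195-117820070 downstream of Socs3, at 44.4 with the next at 67.1. DBA/2J has the shortest list of the 9, and the part of list length in this value was not tested.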

How the results depend on the processing

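No paired analysis was possible because the deposited lists combine the 2 replicates of a strain, so strains were left out in turn instead. The share of sites called in all strains, 25.6%, was 12.2% when a strain's peaks had to cover at least 50% of a site, and 25.6% to 37.2% with a strain left out, the highest without A/J. For distal sites, 17.2%, these values were 6.25%, and 17.2% to 29.0%, again highest without A/J. The share called in 1 strain, 15.9%, was 12.8% to 24.7% with a strain left out, the highest without AKR/J. The list of variable sites held 2 sites within 10 kb of the genes in place of 4. With the 20000 highest peaks of each list, BXH19/TyJ had the C57BL/6J state at 26.7% of sites in place of 52.2%. The other alternatives for the number of sites, their classes, shares, spread, list membership and GAS letters moved counts by at most 1.5 times and shares by less than their interval. The median SD, 13.3 against 11.1 over all sites, was 11.3 against 12.1 with strains without a peak left out, so its order to the background turned. Leaving out A/J, chosen after the data were seen, was tried for the promoter sites at an outermost start. It changed the SD of none of those called in other strains by more than 1.5 times. The SD of the Jak2 site called in A/J alone fell from 16.3 to 0. Promoter sites at other starts were not tried. Among them is the Stat5b site chr11:100683642-100684351, without a call in A/J and at 39.7 to 61.3 in the other strains. The lists hold no read counts, the read totals given by the study were not used here, and how much of a missing call depends on depth was not tested.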
